A study of Drosophila melanogaster with 3 samples.

Results

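The genes described here are the 10 that encode the fibroblast growth factor (FGF) receptors btl and htl, their ligands bnl, ths and pyr, their adaptor stumps, the PDGF- and VEGF-related receptor Pvr and its ligands Pvf1, Pvf2 and Pvf3. They were followed among 13945 protein-coding genes of Drosophila melanogaster in a ChIP-seq map of Pointed, an ETS-domain transcription factor. The map came from whole embryos aged 0 to 24 hours, with males and females together. The embryos were of the strain pnt-MiMIC-GFP, in which an exon coding for eGFP sits within an intron of pnt and yields a tagged Pointed, and chromatin was precipitated with an antibody to GFP, though the antibody field of the labels reads pnt. There was 1 group of 3 biological replicates, numbered 1 to 3, all of this strain and with no second genotype or condition. Whole embryos mix all tissues, so a peak cannot be placed in a cell type. A gene was counted as carrying a peak when a peak summit lay in its dm6 span or within 2 kb of it. By that rule 8 of the 10 genes carried 15 of the 3646 peaks of the authors' final list, here called the optimal list.

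Both receptor systems are receptor tyrosine kinases that signal through Ras and MAP kinase, the pathway that phosphorylates Pointed. Branchless (bnl) guides branching of the tracheal airways through Breathless (btl), while Thisbe (ths) and Pyramus (pyr) act on Heartless (htl) as the mesoderm spreads. Stumps is an intracellular adaptor that both FGF receptors need. Pvr and its ligands guide the migration of border cells in the ovary and of embryonic blood cells, and sustain blood cell survival.

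Peaks at these genes lay mostly in introns. Of the 15 summits, 11 were intronic, 2 lay within 500 bp of a transcription start site (TSS), 1 was in an exon of a noncoding RNA gene and 1 was intergenic. Among all optimal peaks, 35.1% were intronic and 48.8% lay within 500 bp of a TSS. The whole list is not a like comparison, because the rule takes summits anywhere in the spans of these long genes. Shares for peaks at genes of like span were not computed. The median distance to the nearest TSS of any gene was 1943 bp for the 15 peaks and 541 bp for the whole list. The PVR genes held 10 peaks, with a peak at 4 of 4 genes, and the FGF genes held 5, with a peak at 4 of 6 genes. Pvf3 alone held 7 of the PVR peaks. For the peaks counted at Pvf1, Pvf2 and stumps, and the weaker peak at ths, the nearest protein-coding TSS was that of another gene. The peaks were of middling strength. Their median signal, in the authors' units, was 145, against 154 for the whole list, and 6 of the 15 stood among the 1823 peaks of highest signal. The share of all protein-coding genes with an optimal peak by the same rule was 29.4%, but that share depends on gene length, which is taken up below. No read depth was given with the lists used here, so the lists cannot show that a gene with no listed peak was unbound.

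**Figure D1:**
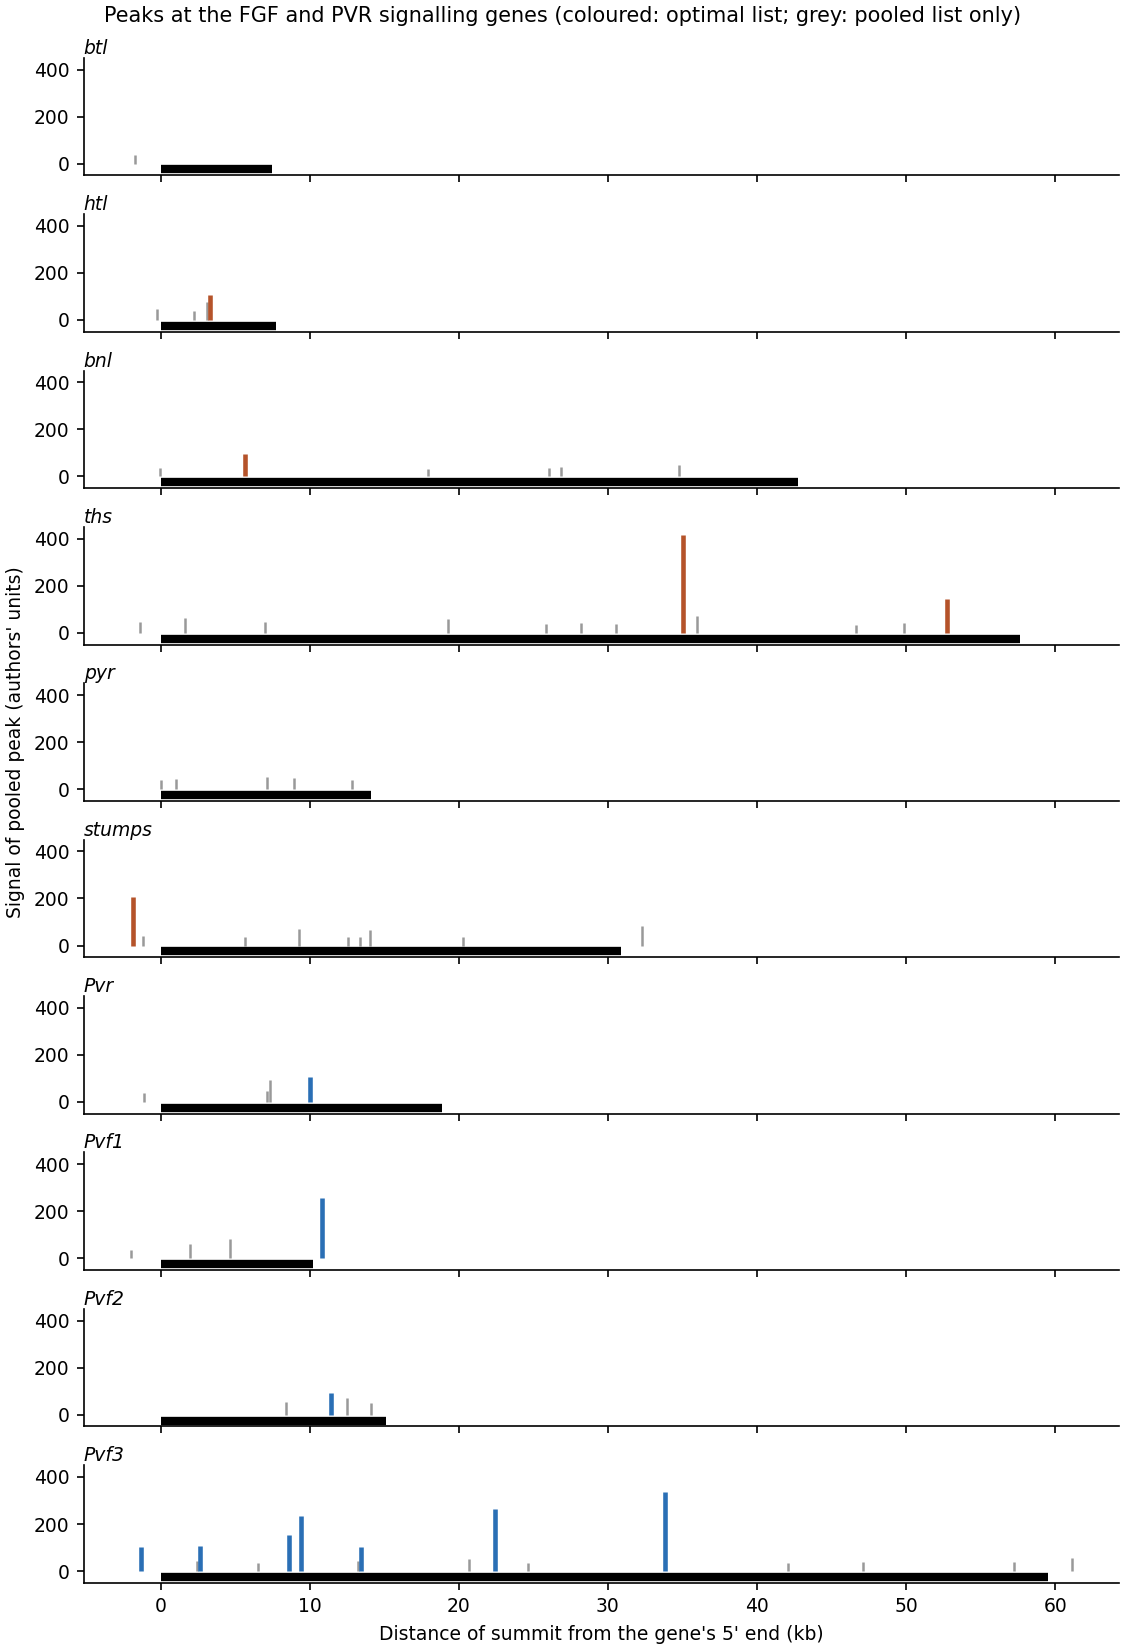
Signal of each pooled peak (vertical axis, authors' units) against the distance of its summit from the gene's 5' end in kb (horizontal axis), for the 10 genes, with the gene span as a black bar, FGF genes in orange, PVR genes in blue and peaks outside the optimal list in grey. The strongest peaks are that of ths at 35.0 kb and that of Pvf3 at 33.8 kb, while btl and pyr show grey peaks alone.

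Pvf3 carried the most peaks, 7 of the 15. Only 17 of the 13945 protein-coding genes (0.122%) had 7 or more, and all 17 belong to the decile of genes with the longest spans, as does Pvf3 with 59508 bp. They make up 1.22% of the 1395 genes in that decile. The gene lies on the minus strand at 2L:7098188-7157695. The strongest of its peaks (2L:7123824-7123950) lay 33.8 kb from the 5' end in intron 1, with a signal of 338 and rank 465 of 3646. Replicates 1, 2 and 3 gave it signals of 122.2, 136 and 72.8, which ranked 451, 355 and 1081 in their own lists. It was therefore high in all 3 and lowest in replicate 3. A second intronic peak (2L:7135086-7135469) had a signal of 264 and lay 1209 bp upstream of an internal TSS of Pvf3. It ranked 744 in the optimal list and 608, 656 and 1278 in the replicates. A pair of peaks at 9.42 and 8.63 kb (2L:7148086-7148469 and 2L:7148877-7149260) had summits only 791 bp apart. Their signals were 233 and 153, and the one at 9.42 kb was the most even of the 14 peaks matched in every replicate, with replicate ranks of 1049, 931 and 1011. Each of these 4 peaks stood in the top list of every replicate, a top list being a replicate's own 3646 peaks of highest signal. Sequences of 201 bases centred on 3 of these summits are shown because they are the strongest peaks inside any PVR gene. They are plus-strand dm6 sequence from the RefSeq copy of the genome, with the ETS core GGAA, or TTCC where it lies on the minus strand, in capitals.
Pvf3 at 33.8 kb (chr2L:7123788-7123988): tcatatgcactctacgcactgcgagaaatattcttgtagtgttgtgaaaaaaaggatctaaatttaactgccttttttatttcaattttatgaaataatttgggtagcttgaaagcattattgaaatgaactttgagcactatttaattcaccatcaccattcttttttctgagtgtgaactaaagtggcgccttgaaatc
Pvf3 at 22.4 kb (chr2L:7135178-7135378): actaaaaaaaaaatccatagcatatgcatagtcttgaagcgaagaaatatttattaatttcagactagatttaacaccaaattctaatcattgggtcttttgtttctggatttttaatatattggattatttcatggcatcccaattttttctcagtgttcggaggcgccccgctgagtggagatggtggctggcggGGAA
Pvf3 at 9.42 kb (chr2L:7148178-7148378): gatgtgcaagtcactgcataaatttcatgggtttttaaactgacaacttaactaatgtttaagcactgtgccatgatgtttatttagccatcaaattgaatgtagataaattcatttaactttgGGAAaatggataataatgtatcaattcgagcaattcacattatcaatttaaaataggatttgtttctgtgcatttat
The strongest window held no GGAA core on either strand, and the windows at 22.4 and 9.42 kb held 1 each, that at 22.4 kb at its very end.

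The other 3 peaks of Pvf3 were weaker, and the one upstream of the gene was the least even between replicates. That at 2.64 kb (2L:7154864-7155247, signal 108) ranked 2439, 4441 and 3761 in replicates 1, 2 and 3. That at 13.4 kb (2L:7144055-7144438, signal 102) lay in an exon of the nested noncoding RNA gene lncRNA:CR44612 and ranked 2989, 3698 and 6119. The last (2L:7158807-7159190, signal 102) lay 1304 bp upstream of the gene. It ranked 893 in replicate 3, against 11313 in replicate 1 and 14670 in replicate 2, so it was high in replicate 3 alone. Of the 7 peaks, 3 held an 11-base word, CACTG followed by any base and GAGAA, within 100 bp of the summit, each time on the plus strand. This word was noticed by reading the printed windows, so its count at Pvf3 is a description without a test. It occurred in 4.47% of all 3646 optimal windows, on either strand, and in 1.27% of the 19502 windows of weaker pooled peaks. The word, in capitals, is shown with 20 bases on either side.
Pvf3 at 33.8 kb (chr2L:7123784-7123834): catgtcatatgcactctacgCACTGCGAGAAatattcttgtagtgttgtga
Pvf3 at 2.64 kb (chr2L:7154971-7155021): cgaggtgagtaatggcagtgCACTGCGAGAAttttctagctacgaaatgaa
Pvf3 at 13.4 kb (chr2L:7144159-7144209): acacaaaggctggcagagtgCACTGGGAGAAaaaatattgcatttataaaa
Its centre lay 79, 60 and 63 bp from the summits in this order.

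**Figure D2:**
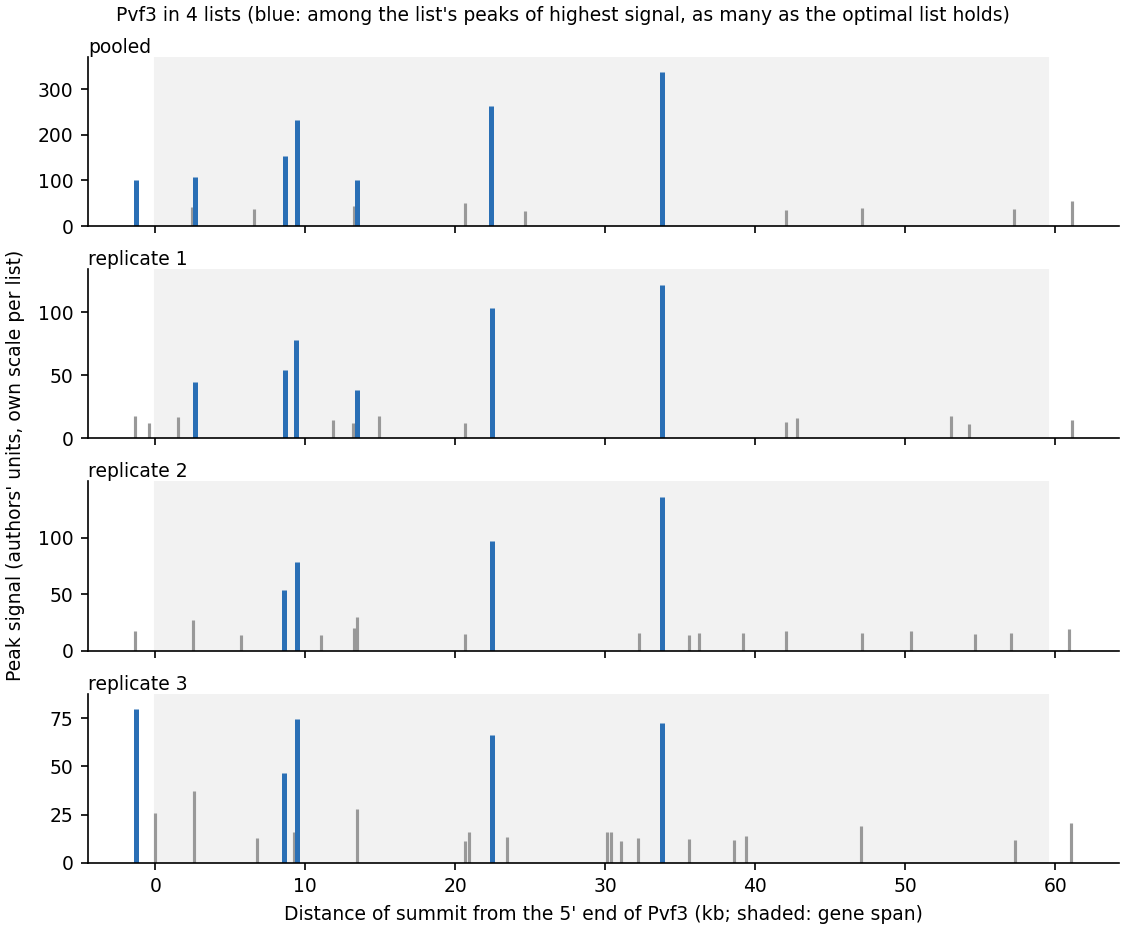
Peak signal (authors' units, with a scale of its own for each list) against distance from the 5' end of Pvf3 in kb, in the pooled list and in replicates 1, 2 and 3, with the gene span shaded and each list's 3646 peaks of highest signal in blue. The 4 peaks at 8.63, 9.42, 22.4 and 33.8 kb are blue in all 4 lists, while the peak upstream of the gene is tall in replicate 3 alone.

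The neighbouring gene Pvf2 (minus strand, 2L:7069536-7084635) encodes another Pvr ligand and lies 13552 bp from Pvf3 with no protein-coding gene between. Its 1 optimal peak (2L:7072999-7073382, signal 93.9) lay in intron 3, 11.4 kb from the 5' end, and ranked 3593, near the bottom of the list. The TSS nearest to that summit, at 5208 bp, was that of another gene, Ugt307A1. The peak ranked 4085, 2683 and 5415 in replicates 1, 2 and 3, so it entered the top list of replicate 2 only. The gap between Pvf2 and Pvf3 held 0 optimal summits. Pvf1 (plus strand, X:18832682-18842901) had a stronger peak (X:18843347-18843730, signal 255, rank 789), which lay 638 bp beyond its 3' end. That summit was 124 bp from the TSS of the next gene, htk, and 10.9 kb from the TSS of Pvf1, so a peak at the htk promoter is counted for Pvf1 by its distance to the span. It ranked 1243, 1199 and 375 in replicates 1, 2 and 3. Inside Pvf1 the pooled list had weaker peaks, the strongest 4633 bp from the TSS with a signal of 82.9 and rank 4214, which is 568 places below the end of the optimal list.

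The receptor gene Pvr (minus strand, 2L:8220980-8239878) had 1 optimal peak in intron 2 (2L:8229680-8230063, signal 104, rank 3126). Its summit lay 805 bp downstream of an internal TSS. It ranked 6654, 2481 and 3693 in replicates 1, 2 and 3, and only replicate 2 held it in its top list. The intronic peak at 2L:8232329-8232712 had a signal of 91.8 and pooled rank 3721, and so missed the optimal list by 75 places. It ranked 4501, 2698 and 5360 in the replicates, a range that overlaps that of the listed peak of the same gene. The windows of Pvr, Pvf2 and Pvf1 are shown because those of Pvr and Pvf2 hold the most GGAA cores at the PVR genes while that of Pvf1 holds none.
Pvr (chr2L:8229772-8229972): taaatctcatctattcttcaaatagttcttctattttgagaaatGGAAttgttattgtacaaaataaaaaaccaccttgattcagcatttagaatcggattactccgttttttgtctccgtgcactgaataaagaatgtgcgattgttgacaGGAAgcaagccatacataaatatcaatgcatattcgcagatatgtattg
Pvf2 (chr2L:7073091-7073291): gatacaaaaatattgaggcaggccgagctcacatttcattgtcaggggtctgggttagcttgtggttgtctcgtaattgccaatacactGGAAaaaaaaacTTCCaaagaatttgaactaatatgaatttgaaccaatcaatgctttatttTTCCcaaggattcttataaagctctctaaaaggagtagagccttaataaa
Pvf1 and htk (chrX:18843439-18843639): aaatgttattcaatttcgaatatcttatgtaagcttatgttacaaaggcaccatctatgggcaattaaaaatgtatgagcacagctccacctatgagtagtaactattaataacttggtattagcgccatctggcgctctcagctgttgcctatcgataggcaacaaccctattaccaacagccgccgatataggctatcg
The Pvr window held 2 cores and the Pvf2 window 3. The window at the htk promoter held 0 but held the word TATCGAT, the core of the site of the promoter factor DREF, as 2 overlapping matches, 1 on each strand. That word was found in 2 of the 15 windows, the other at htl, and in 7.13% of all optimal windows.

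Among the FGF genes, the adaptor stumps and the receptor htl differed in where their peaks lay. At stumps (plus strand, 3R:14577217-14608079) the 1 optimal peak (3R:14575151-14575534, signal 205, rank 1159) was 1874 bp upstream of the gene, just inside the 2 kb limit. It lay in an intron of CG7987 and was nearer to the TSS of that gene, at 544 bp. It was even across replicates 1, 2 and 3, with ranks of 1292, 1438 and 1065. At htl (minus strand, 3R:18045216-18052984) the peak (3R:18049489-18049872, signal 108, rank 2971) lay 315 bp upstream of the internal TSS. This was the only optimal peak within 500 bp of a start site of any of the 10 genes. It ranked 2908 and 2019 in replicates 1 and 2 but 12379 in replicate 3. There 2 peaks overlapped it, and the one whose summit was nearer ranked 13713. Both windows are shown and each holds 2 GGAA cores. The window of the ths peak of rank 305 also holds 2 and is not shown.
stumps (chr3R:14575243-14575443): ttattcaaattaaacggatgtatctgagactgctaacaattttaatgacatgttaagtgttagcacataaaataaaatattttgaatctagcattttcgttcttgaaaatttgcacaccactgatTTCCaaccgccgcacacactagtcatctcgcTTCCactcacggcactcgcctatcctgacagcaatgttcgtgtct
htl (chr3R:18049581-18049781): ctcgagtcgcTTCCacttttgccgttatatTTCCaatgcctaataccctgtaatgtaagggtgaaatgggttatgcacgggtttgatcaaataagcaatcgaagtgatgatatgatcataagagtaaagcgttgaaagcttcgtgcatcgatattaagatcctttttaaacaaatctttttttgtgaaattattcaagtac
In the stumps window both cores lay to the right of the summit, and in the htl window both lay near its left end.

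The other FGF receptor gene, btl (plus strand, 3L:14075772-14083229), had no optimal peak. The pooled list held 1 peak there, with a signal of 38.5 and rank 16608 of 23148. It lay 1714 bp upstream of the TSS of btl, in coding sequence outside the btl span, and ranked 23641, 27983 and 17448 in replicates 1, 2 and 3. The best ranks at btl were 23641, 11479 and 17448 in replicates 1, 2 and 3, all far below the top lists. That of replicate 2 belonged to another peak, 185 bp from a TSS of btl. A relaxed pooled peak was present at 76.9% of all protein-coding genes, and all 10 genes had at least 1, a count that says little beside that share.

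The ligand genes of the FGF group ranged from the strongest peak of all 15 to none. At ths (plus strand, 2R:11756817-11814424) the stronger of 2 peaks (2R:11791745-11791932, signal 417, rank 305) lay 1477 bp downstream of the internal TSS, in an intron. Replicates 1, 2 and 3 gave it signals of 122.6, 163 and 132, which ranked 450, 233 and 310. It was the best-ranked of the 15 peaks in each replicate. The weaker (2R:11809368-11809751, signal 145, rank 1961) lay 52.7 kb from the 5' end, in an intron, and ranked 1476, 2532 and 3946. At bnl (minus strand, 3R:19794073-19836817) the 1 peak (3R:19830983-19831366, signal 94.96, rank 3538) lay in intron 1, 5642 bp from the TSS. Replicate 3 ranked it 2275 and replicate 1 ranked it 4820, while replicate 2 had no overlapping peak among its 30000. At pyr (plus strand, 2R:11712263-11726345), the gene next to ths, there was no optimal peak. The strongest of its 5 pooled peaks had a signal of 52.1 and rank 8580, and ranked 27680, 5061 and 10679 in replicates 1, 2 and 3. The best ranks at the gene were 7430, 5061 and 4573 in replicates 1, 2 and 3, at different places. These lay 8.91 kb and 7.15 kb from the 5' end in replicates 1 and 2, and 15 bp from the TSS in replicate 3. Of the ligands that act on Heartless, ths thus had 2 optimal peaks in a span of 57608 bp and pyr had 0 in 14083 bp. A further 2 optimal peaks lay between these genes, more than 2 kb from either.

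Support by replicates was uneven over the 15 peaks. Of these, 7 (46.7%) had a match in every replicate's top list, 2 had one in 2 top lists and 6 (40.0%) in 1. Among all 3646 optimal peaks 57.0% were matched in 3 top lists and 14.2% in 1. The 7 peaks lay at ths, Pvf3, Pvf1 and stumps, and all 7 ranked 1828 or better in the optimal list. Replicates 1, 2 and 3 matched 11, 11 and 9 of the 15 (73.3%, 73.3% and 60.0%), against 86.6%, 81.5% and 73.4% of all optimal peaks. For the 14 peaks with a match in every replicate, the highest rank number was a median of 2.07 times the lowest, against 2.26 times for 3408 optimal peaks with 3 matches. The peaks farthest apart were that upstream of Pvf3 (16.4 times) and that of htl (6.13 times). The optimal list was made from the same libraries, so these shares are no independent test of agreement.

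**Figure D3:**
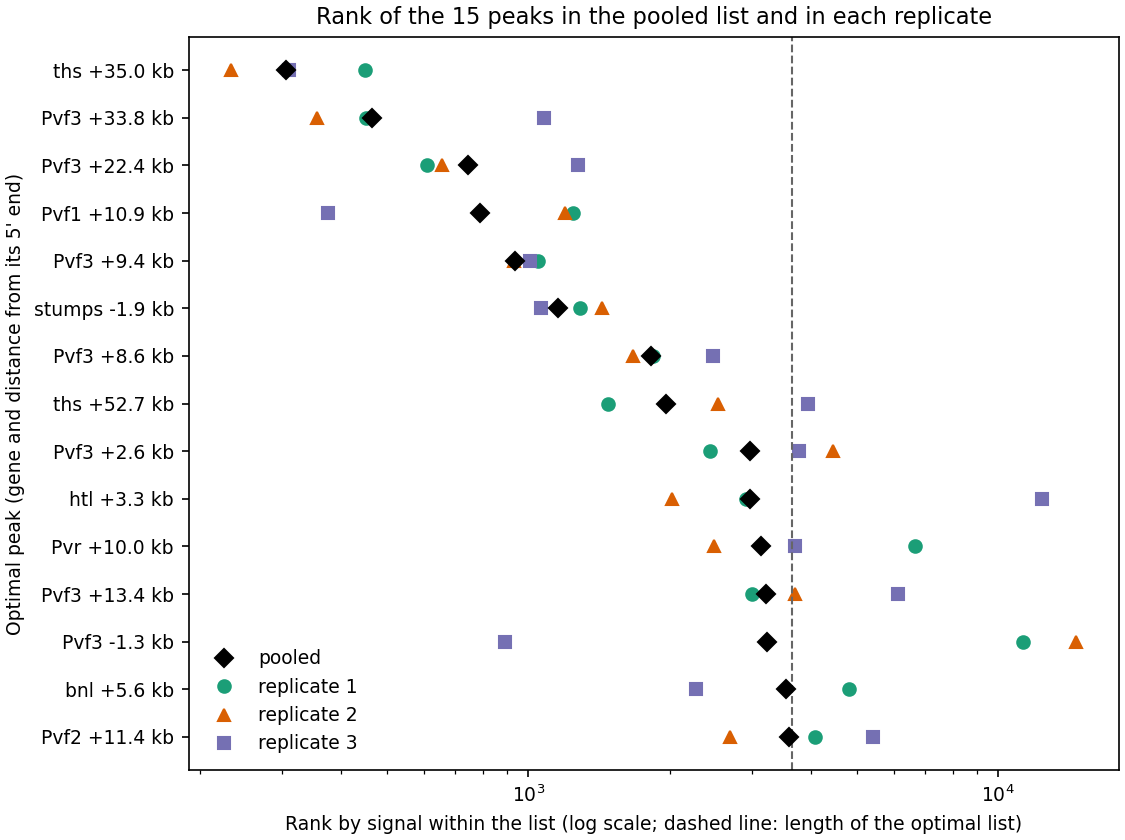
Rank by signal (horizontal log axis) of each of the 15 optimal peaks in the pooled list and in replicates 1, 2 and 3, with the peaks ordered by pooled rank and named by gene and distance from its 5' end; the dashed line marks rank 3646. The first 7 rows lie left of the line in every list, and bnl has no symbol for replicate 2.

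Counted per gene from each replicate's own top list, 5, 7 and 5 of the 10 genes carried a peak in replicates 1, 2 and 3. The shares of all protein-coding genes were 29.6%, 27.0% and 30.9%. Replicate 2 gave the highest count and the lowest share over all genes. Those shares cover genes of every span, and shares for long genes alone were not computed for these lists. Among the 10 genes, replicate 2 alone had top-list peaks that no optimal peak overlapped, 5 in all, with 2 at stumps, 2 inside Pvf1 and 1 at Pvr. One of those at stumps (rank 2462 in replicate 2, 4940 in replicate 1) lay 433 bp from an internal start site of the gene. The other (rank 3532 in replicate 2) lay beyond the 3' end of stumps, 152 bp from the TSS of CG14853.

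Pooled peaks at the start sites of the genes themselves mostly ranked below the optimal list, as did 19502 of all 23148 pooled peaks. Ranks of such peaks at all genes were not computed. The pooled list held one within 500 bp of an own TSS at 5 of the 10 genes and at 42.5% of all protein-coding genes. Apart from htl, the best-ranked pooled peak within 500 bp of an own TSS ranked 5928 at stumps, 17881 at pyr, 21928 at bnl and 22196 at Pvf3. At btl, ths, Pvr, Pvf1 and Pvf2 the pooled list held none. In the whole lists of replicates 1, 2 and 3, 5, 3 and 7 of the 10 genes had a peak there, against 45.1%, 33.3% and 54.6% of all protein-coding genes. These counts ran in the same order as the shares of all genes and are too small to be read as a trait of the 10. At pyr that peak ranked 4573 in replicate 3 and 26461 in replicate 1, with none in replicate 2. At bnl it ranked 6783 in replicate 3, with none in the others. Pvr, with none in the pooled list or in replicate 2, had one of rank 7377 in replicate 1 and one of rank 7594 in replicate 3. The share of top-list peaks within 500 bp of a TSS also differed, at 49.3%, 40.6% and 56.4% in replicates 1, 2 and 3, and the part of this difference in the values at these genes was not tested.

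The ETS core GGAA occurred at these peaks at a share near that of the whole list. It occurred, on either strand, within 100 bp of the summit in 11 of the 15 windows (73.3%) and in 75.5% of all optimal windows. Within 50 bp it occurred in 5 of the 15 (33.3%) and in 50.7% of all. The longer word CCGGAA, which contains it, was found in 1 window, at Pvf3 13.4 kb from the 5' end, and in 3.43% of all windows. GGAAG, which also contains it, was found in 5 windows and in 18.6% of all. Other words were each found in 3 windows or fewer. GAGAG, the core of GAGA factor sites, was in 3 windows and in 24.1% of all. The AP-1 word TGANTCA was in 1, at Pvr, and in 5.05% of all. The E-box CAGCTG was in 1, at the htk promoter, and in 9.30% of all. The Zelda word CAGGTA was in 0 and in 4.28% of all. Mean GC content was 34.7% ± 3.16 in the 15 windows and 37.0% ± 6.11 in all windows (SD over windows). A match is a description of the window and not a bound site.

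Gene length bears on the count of genes with a peak. The 10 genes have a median span of 16999.5 bp, against 2166 bp for all protein-coding genes, and all 10 fall in the 2 longest deciles of span. In decile 9, with genes of 6458 to 14581 bp, 42.7% carried an optimal peak. Of the members in it, htl and Pvf1 carried 1 and btl and pyr carried none. In decile 10, with genes of 14601 bp and longer, 53.6% carried a peak, and so did all 6 members in it, namely bnl, ths, stumps, Pvr, Pvf2 and Pvf3. The 8 of 10 is thus to be read against 42.7% and 53.6% more than against 29.4%.

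**Figure D4:**
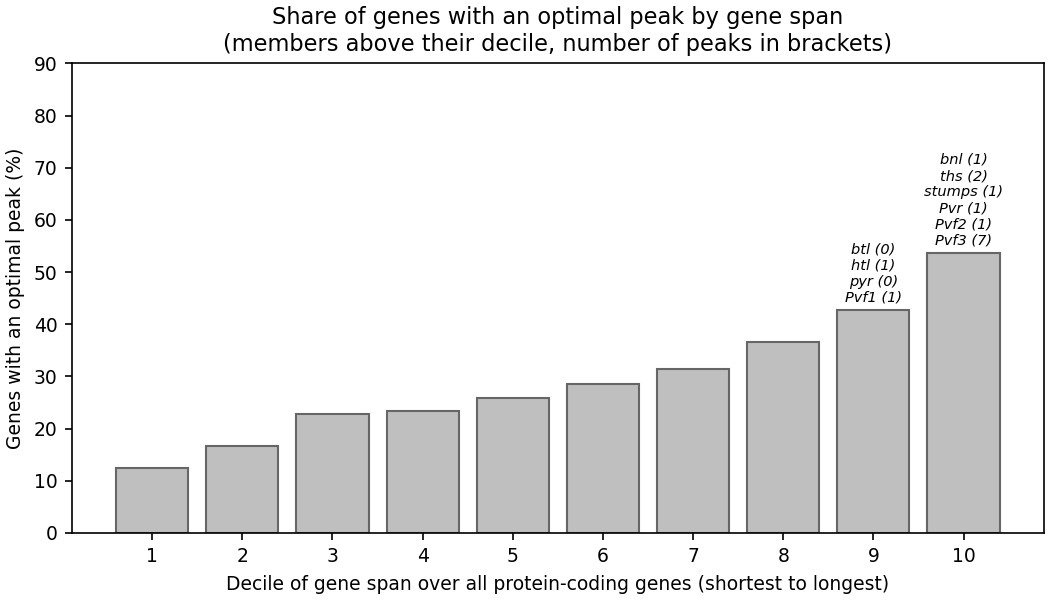
Share of protein-coding genes with an optimal peak (bars, %) in each decile of gene span from shortest to longest, with the 10 genes written above their decile and their number of optimal peaks in brackets. The share is 12.5% in the shortest decile and 53.6% in the longest.

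Genes that act with these receptors, and genes of related receptor families, were examined in 6 lists, described by counts. Beside each count stands the share of genes with a peak in the span decile that holds the list's median. Of 15 other receptor tyrosine kinase genes, 9 carried a peak, while sev, tor, Alk, Ret, Ror and Tie had none. The best ranked were at Nrk (165, at the TSS of TppII), InR (182, the insulin receptor gene), Drl-2 (1344, nearest to the TSS of CG13324) and drl (2409). The median span of the 15 genes was 18280 bp (decile share 53.6%). Of 15 intracellular components shared by these receptors, 12 carried a peak, led by the adaptor gene Shc (15), Raf (36), RasGAP1 (69), which encodes a Ras inhibitor, and the scaffold gene cnk (205, nearest to the TSS of a neighbouring gene), while Sos, rl and Cbl had none. Their median span was 7293 bp (42.7%). Heparan sulfate proteoglycans serve as coreceptors for FGF. Of 11 genes for their cores and synthesis 10 carried a peak, led by the sulfotransferase genes Hs2st (207) and Hs6st (592), the glypican gene dlp (627) and sgl (851), and sfl had none. The median span in that list was 54425 bp (53.6%).

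Of 7 genes that couple Pvr to the cytoskeleton, 4 carried a peak. Among these were the small GTPase genes Mtl (90, nearest to the TSS of CG5611), Rac2 (2770) and Rac1 (3585, nearest to the TSS of scf). The other was the Rac activator gene mbc (218, at the TSS of a neighbouring gene), while Ced-12, Crk and Vav had none. The median span of the 7 genes was 3002 bp (31.5%). Of 15 transcription factor genes of the trachea and mesoderm 6 carried a peak, led by Mef2 (24, at the TSS of Pal1), sima (411), grh (464) and bs (799), with weaker peaks at tin and esg. In that list trh, vvl, tgo, kni, knrl, salm, twi, sna and eve had none, and the median span was 11304 bp (42.7%). The FGF and PVR genes carried 15 peaks at 8 of 10 genes, against 21 peaks at 7 of 10 genes in the most similar signalling family, the EGFR receptor with its ligands and their processing. The leading peaks of that family, at aos (125), spi (137) and S (220), all ranked ahead of the best at the FGF and PVR genes (305). The median span of that family was 11340.5 bp (42.7%). The best peak counted for Krn ranked 748 and lay 66 bp from the TSS of Ndfip, while grk and kek1 were among the genes with none.

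For ths and Pvf3, the genes of strongest signal in each group, the genes with the most similar strength across lists were sought. Likeness was the Euclidean distance of log10 ranks over 4 lists, the pooled one and those of replicates 1, 2 and 3, among 2409 other genes with a peak assigned to their TSS. Nearest to ths were Eip63E (distance 0.0274), CG3788 (0.0908) and CG31808 (0.0993). Nearest to Pvf3 were ben (0.0370), CG14492 (0.0684) and Hgsnat (0.0736). Peaks of like rank are many, and the measure says nothing of shared function.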

How the data were processed

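Anti-GFP ChIP-seq of 3 replicates was analysed from the authors' dm6 peak lists, which comprise a relaxed list for each replicate, a pooled relaxed list and the optimal list, described in the deposited file notes as thresholded by IDR. The sources used here do not give the peak caller or the IDR threshold. For each peak the authors deposited a signal value of unstated scale and −log10 of a q-value. Signal served only for ranks and description. Depth is unknown. All 3646 optimal peaks had the same rank in the pooled list.

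Summits (1-based) were assigned to genes and TSSs of Ensembl release 115, without transposable elements, on 6 chromosome arms. A replicate's top list is its 3646 peaks of highest signal, and 1 bp of overlap was a match. Sequence came from the RefSeq copy of genome Release 6, which has the coordinates of dm6. The older symbol Gap1 was matched to RasGAP1. No test was made, since there is 1 group. Python 3.11.15, pandas 2.3.3 and NumPy 2.4.6 were used, and assignment, overlap and word search were tested on simulated data. The members and lists were chosen with earlier results of these data known. Named genes are the members, the genes nearest to their peaks, up to 4 genes of best rank and those without a peak in each list, and 3 genes of like rank for ths and Pvf3. Other names, such as tin and esg, were added after their values were seen. Some genes that this rule names are not reported here. Lists on dm3 were not used. Alternatives were other gene windows, peak thresholds, overlaps, TSS windows, word windows and leaving out each replicate.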

Additional observations from a re-analysis of the deposited data

How the results depend on the processing

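Of 35 alternative values, 23 stayed within 1.5 times the reported count and 12 did not. The count of 8 genes with a peak was 5 when a peak went only to the nearest protein-coding TSS (18.5% of all genes), 4 in the 1823 peaks of highest signal (17.7%), and 5 when either replicate 1 or replicate 3 supplied the top list. In those 1823 peaks the 15 peaks fell to 6, by construction. With whole relaxed lists in place of top lists, 14 peaks, in place of 7, and 7 genes, in place of 4, were matched in all 3 replicates. So were 3408 of all 3646 optimal peaks, so the 14 are no trait of these genes. Leaving out 1 replicate in turn gave 7 to 9 peaks and 4 to 5 genes, and the matching shares of all optimal peaks were not computed. The 2 peaks within 500 bp of a TSS (48.8% of all optimal peaks) became 1 within 200 bp (34.8% of all) and 4 within 1000 bp (59.2% of all). The 11 windows with GGAA became 5 within 50 bp, 5 for GGAAG and 1 for CCGGAA. No paired analysis was possible because there is 1 group. Unknown depth limits any statement about btl and pyr.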

Other observations

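Between pyr and ths, in a stretch of 30471 bp without protein-coding genes, lay 2 optimal peaks that the 2 kb limit gives to neither gene. The stronger (2R:11738633-11738768, signal 186, rank 1360) was 12352 bp beyond pyr and 18120 bp before ths, and ranked 1203, 933 and 3771 in replicates 1, 2 and 3. The weaker (2R:11742732-11743115, signal 94.8, rank 3545) was 16579 bp beyond pyr and 13893 bp before ths, and ranked 4656, 2361 and 8033. The TSS nearest to both was that of ths.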
